A study of Mus musculus with 20 samples.

Results

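Integrins, laminins and the proteins that join them at the basement membrane were followed through overexpression and knockdown of 2 forkhead transcription factors, Foxk1 and Foxk2, in mouse fat cells. The genes were taken by symbol: 18 integrin alpha chains, 10 genes named Itgb (8 numbered beta chains, the beta2-like Itgb2l and the beta-like Itgbl1), 11 laminin chains, and Nid1, Nid2, Hspg2, Agrn and Dag1, 44 of the 48440 genes in the table. Itgb3bp and the Itgb1bp genes, which encode binding proteins rather than integrin chains, were left out. Of the 44 genes, 29 reached 0.5 RPKM (reads scaled to exon length and sequencing depth) in at least 2 libraries and were tested. The 15 others stayed low and are described at the end.

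Integrins are receptors of paired alpha and beta chains that tie cells to the matrix around them. The alpha chain largely sets the ligand: alpha3, alpha6 and alpha7 bind laminins, alpha5, alpha8, alphav and alphaIIb bind proteins with the RGD motif such as fibronectin and vitronectin, and alpha1, alpha2, alpha10 and alpha11 bind collagens. Laminins are trimers of an alpha, a beta and a gamma chain that polymerise into one layer of the basement membrane. Nidogens and perlecan bridge that layer to the collagen IV network, and agrin and laminins are held at the cell surface by dystroglycan. Mature fat cells are each wrapped in a basement membrane, while fibroblast-like precursors sit in a fibronectin-rich matrix.

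RNA sequencing covered 20 libraries of 3T3-L1 adipocytes, fat cells differentiated in culture from a mouse preadipocyte line that descends from 1 clone, with the strain given as Swiss mouse. Cells labelled as carrying a constitutive FOXK1 or FOXK2 expression construct were set against cells with an empty vector, and cells with an shRNA to Foxk1 or Foxk2 against cells with a scrambled shRNA. Every Foxk1 group held 3 libraries and every Foxk2 group 2, each manipulation had controls of its own, and all groups shared the same differentiation with 1 µM dexamethasone, 0.5 mM isobutylmethylxanthine, 5 µg/ml insulin and 10 µM troglitazone, followed by insulin alone from day 4 and, from day 6, growth medium. The labels do not say whether replicates were separate cultures, so p-values measure only the spread between these libraries, which may be technical.

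Depth was 16739763 to 20772823 reads in the Foxk1 libraries and 31378224 to 36157008 in the Foxk2 libraries, and mitochondrial genes took 3.79 to 7.80% of reads. The first principal component, with 79.5% of the variance of tested genes, separated all Foxk1 libraries from all Foxk2 libraries, controls included, so levels are compared only within a manipulation and its own controls. Foxk1 mRNA fell on Foxk1 knockdown (log2 fold change -1.23) and Foxk2 mRNA fell on Foxk2 knockdown (-1.83) and rose on Foxk2 overexpression (0.56). The other factor's mRNA also changed: Foxk1 fell on Foxk2 overexpression (-0.66) and rose on Foxk2 knockdown (0.30), and Foxk2 rose in the labelled Foxk1 overexpression (0.29) and fell in Foxk1 knockdown (-0.19). In the libraries labelled Foxk1 overexpression Foxk1 mRNA did not rise but fell, being at 6.10 ± 0.0553 RPKM against 7.55 ± 0.468 in controls (SD, n = 3 per group), a log2 fold change of -0.28 (adjusted p = 0.000515), so directions there are those of the label. The adipocyte markers Adipoq and Plin1 were high in every library (647 to 3152 and 165 to 291 RPKM), while Lep, another adipocyte marker, ranged from 0 to 1.16 RPKM. The endothelial marker Cldn5 was at 0 in all 20 libraries, and the leukocyte marker Ptprc was at 0 in 18.

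Most of the tested genes changed in each comparison, downward where a factor was labelled as overexpressed and upward where it was knocked down. A gene counted as changed where limma's adjusted p, over all 15981 genes tested, was under 0.05. In the labelled Foxk1 overexpression 7 of 29 rose, 16 fell and 6 did not pass, where 47.8% of all genes tested were called (24.1% higher, 23.8% lower). On Foxk2 overexpression 3 rose, 19 fell and 7 did not pass (45.0% of all genes called, 23.0% higher and 22.0% lower). Foxk1 knockdown gave 19 higher, 5 lower and 5 not passing (35.9% of all genes called, 20.4% higher and 15.5% lower). Foxk2 knockdown gave 16 higher, 4 lower and 9 not passing (33.7% of all genes called, 18.0% higher and 15.7% lower). The 29 include Itga8, Itga11, Itgal, Itgb2 and Lama2, which passed the filter in at most 2 groups where they are high. Under a filter on the mean over all libraries (1 RPKM or more), 6 of 22 genes rose and 12 fell, 3 rose and 16 fell, 15 rose and 4 fell, and 14 rose and 4 fell, in the order above. The median log2 fold change of the 29 genes was -0.27, -0.34, 0.26 and 0.28 in that order, against 0.00, 0.00, 0.02 and 0.00 for all genes tested. The ranges of manipulated and control libraries were apart for 25, 25, 24 and 25 of the 29 genes, against 52.3, 70.3, 44.2 and 67.2% of all genes tested. With the trend of each library on exon length and GC content removed, the share of all called genes that were higher went from 56.9 to 43.7% in Foxk1 knockdown and from 53.5 to 40.7% in Foxk2 knockdown.

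**Figure D1:**
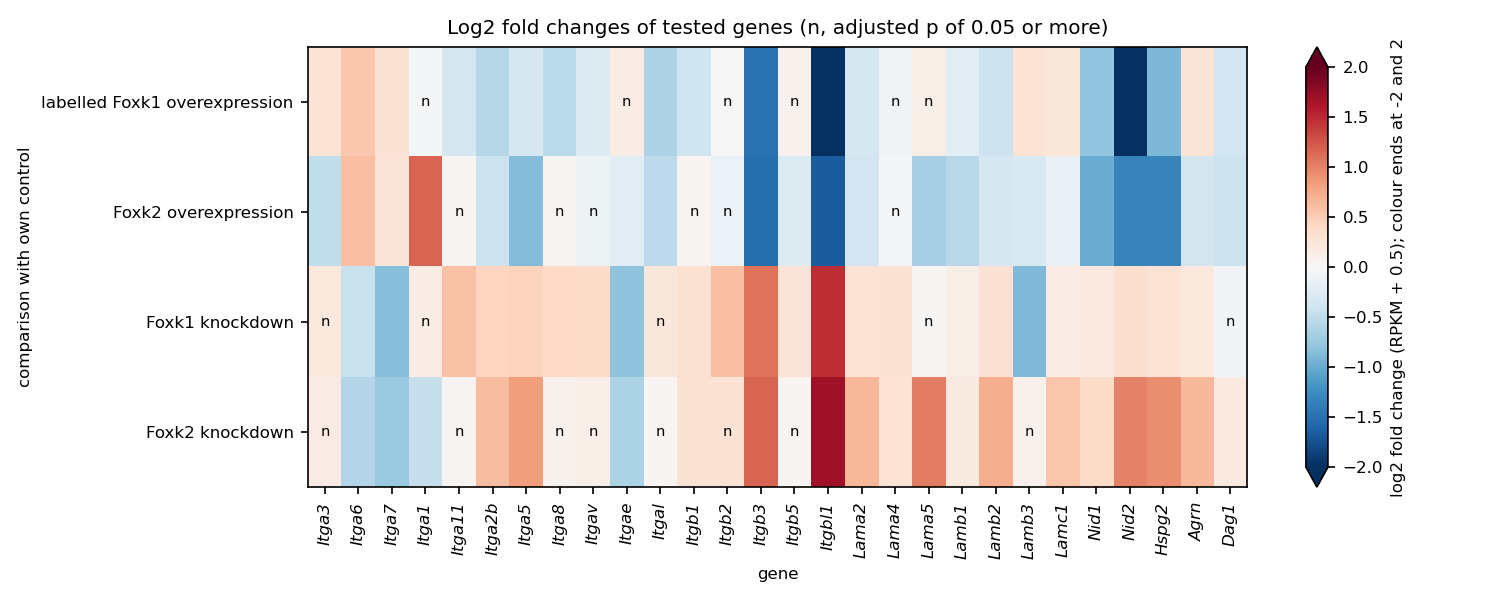
Log2 fold change on the log2(RPKM + 0.5) scale of the tested genes named in the text (columns) in the 4 comparisons with their own controls (rows), red for higher and blue for lower, with n marking values that did not pass. Itgb3, Itgbl1, Nid1, Nid2 and Hspg2 are blue in both overexpression rows and red in both knockdown rows, and Itga6 and Itga7 show the opposite colours.

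Markers of fibroblasts and preadipocytes moved the same way. Of 11 tested markers, 10 fell and 0 rose in either overexpression, and 11 rose in either knockdown. Their summed level ranged from 528 to 552 RPKM in the labelled Foxk1 overexpression against 1056 to 1251 in its controls, and from 3078 to 3226 in Foxk1 knockdown against 1784 to 1907. It ranged from 508 to 518 RPKM in Foxk2 overexpression against 1003 to 1026, and from 1609 to 1673 in Foxk2 knockdown against 665 to 667. Pdgfra, the PDGF receptor that marks preadipocytes, had log2 fold changes of -2.68, -1.82, 1.10 and 1.96 in the order of the previous paragraph. Of 12 adipocyte markers, 7 fell in either overexpression (3 and 4 rose), 9 fell in Foxk1 knockdown and 6 in Foxk2 knockdown, with 0 higher in either knockdown. In whole cultures fewer cells of a type and less RNA per cell cannot be told apart, and the part of these markers in the results below was not tested.

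A set of 10 genes fell in both overexpressions and rose in both knockdowns, 34.5% of the 29 against 6.98% of all genes tested. They were the integrin genes Itga2b, Itga5 and Itgb3, the beta-like Itgbl1, the laminin chains Lama2, Lamb1 and Lamb2, both nidogens and perlecan (Hspg2). Lama2 passed the filter only through Foxk2 knockdown and the Foxk2 overexpression controls, groups where it is high, and without it the count is 9. The opposite pattern was held by Itga6 and Itga7, which encode laminin-binding alpha chains, 6.90% of the 29 against 4.52% of all genes. Within Foxk1 alone 14 genes were lower with the overexpression label and higher on knockdown (48.3%, against 12.5% of all genes). They include Itga8, which passed the filter through Foxk1 knockdown alone, and Itga11, which passed only through Foxk1 knockdown and its controls. Both are high in those groups, so the share rests partly on the filter. The reverse was held by 4 genes, Itga6, Itga7 and Lamb3 among them (13.8%, against 8.82%). Within Foxk2, 14 genes, Lama2 among them, had the first pattern (48.3%, against 11.6%), and 3, Itga1, Itga6 and Itga7, the reverse (10.3%, against 10.4%). With the length and GC trend removed, 6 genes kept the first pattern: Itga2b lost its call in Foxk2 overexpression (-0.21, adjusted p = 0.0769), Lamb2 likewise (-0.11, adjusted p = 0.192), Lama2 in Foxk1 knockdown (0.17, adjusted p = 0.0716), and Lamb1 in both knockdowns (0.05, adjusted p = 0.0866, and 0.03, adjusted p = 0.531). All 4 comparisons were called for 14 of the 29 genes (48.3%, against 13.0% of all genes), and each of the 29 was called in at least 1, where 27.9% of all genes were called in 0.

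The promoters of 4 genes of the first pattern are shown because these genes moved together under forkhead factors. RefSeq windows on GRCm38.p6, from 250 bases before the transcription start to 50 bases into the gene, were at hand for 29 of the 44 genes, not for Itga6, Itga7, Itgb3 or Nid2. The windows shown are at chr14:123659890-123660189 (plus strand) for Itgbl1, chr4:137468553-137468852 (plus) for Hspg2, chr13:13437352-13437651 (plus) for Nid1 and chr15:103366742-103367041 (minus) for Itga5. Capitals mark the GC box letters GGGCGG or their reverse complement CCGCCC, a motif picked after the windows were seen.
Itgbl1: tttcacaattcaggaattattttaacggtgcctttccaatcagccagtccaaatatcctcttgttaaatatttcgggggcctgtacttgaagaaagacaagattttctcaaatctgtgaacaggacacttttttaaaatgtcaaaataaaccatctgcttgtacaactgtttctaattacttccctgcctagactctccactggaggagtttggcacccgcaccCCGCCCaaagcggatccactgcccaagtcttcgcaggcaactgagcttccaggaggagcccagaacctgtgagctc
Hspg2: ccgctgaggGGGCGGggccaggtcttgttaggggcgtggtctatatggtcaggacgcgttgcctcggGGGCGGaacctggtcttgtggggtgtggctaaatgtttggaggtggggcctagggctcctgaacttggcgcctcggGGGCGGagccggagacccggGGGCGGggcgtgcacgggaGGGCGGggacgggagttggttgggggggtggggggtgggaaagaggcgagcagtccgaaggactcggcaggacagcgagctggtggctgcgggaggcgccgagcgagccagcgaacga
Nid1: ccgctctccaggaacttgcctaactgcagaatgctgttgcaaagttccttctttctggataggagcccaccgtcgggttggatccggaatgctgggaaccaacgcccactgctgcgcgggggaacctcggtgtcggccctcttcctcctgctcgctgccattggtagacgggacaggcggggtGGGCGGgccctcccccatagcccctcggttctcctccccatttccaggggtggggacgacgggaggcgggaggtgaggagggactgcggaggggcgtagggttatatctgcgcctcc
Itga5: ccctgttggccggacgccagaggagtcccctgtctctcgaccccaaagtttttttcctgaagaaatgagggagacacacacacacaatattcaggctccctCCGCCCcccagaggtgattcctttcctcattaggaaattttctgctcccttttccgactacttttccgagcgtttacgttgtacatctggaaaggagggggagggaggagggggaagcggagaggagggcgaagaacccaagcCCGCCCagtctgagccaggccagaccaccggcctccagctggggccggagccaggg
The forkhead core GTAAACA or its reverse complement TGTTTAC was in 0 of the 34 windows of these genes and in 3.65% of all 32851 windows. A GC box was in 19 of the 34 windows (55.9%) against 35.7% of all windows. The Itgbl1 window held 1 GC box and 45.3% G and C, and the Hspg2 window 5 boxes and 70.3%. Among genes of the first pattern not shown, the windows of Itga2b and Lamb2 held 0 boxes, and those of Lama2 and Lamb1 held 1 and 2. These letter matches describe the windows and say nothing of binding.

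Itga6 and Itga7 had the highest mean level over all 20 libraries among integrin alpha genes (Itga5 was above Itga7 in Foxk1 knockdown and above Itga6 in Foxk2 knockdown), and they rose with the labelled overexpression and fell with knockdown of either factor. Itga6 (ENSMUSG00000027111.15, chromosome 2, 71745616 to 71858416 in mm10) encodes the alpha6 chain of laminin receptors. Its level was 51.1, 48.1 and 49.98 RPKM in the labelled Foxk1 overexpression against 34.6, 36.1 and 31.7 in controls, and 43.5 and 44.1 in Foxk2 overexpression against 28.6 and 29.02. In Foxk1 knockdown it was 25.0, 26.4 and 26.1 RPKM against 34.1, 35.6 and 37.02, and in Foxk2 knockdown 25.5 and 24.0 against 36.5 and 38.6. The groups did not overlap in any of the 4 comparisons, every library labelled as overexpressing lying above and every knockdown library below its controls. Its log2 fold changes were 0.54 ± 0.046 (SE, adjusted p = 1.13e-07), 0.60 ± 0.056 (adjusted p = 3.86e-07), -0.45 ± 0.046 (adjusted p = 1.44e-06) and -0.59 ± 0.056 (adjusted p = 8.78e-07), in the order labelled Foxk1 overexpression, Foxk2 overexpression, Foxk1 knockdown and Foxk2 knockdown, which is kept below.

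Itga7 (ENSMUSG00000025348.8, chromosome 10, 128933818 to 128958282), which encodes the laminin-binding chain best known from muscle, moved the same way. Its mean went from 28.8 ± 2.03 to 35.4 ± 1.23 RPKM in the labelled Foxk1 overexpression and from 38.3 ± 1.58 to 21.04 ± 0.747 in Foxk1 knockdown (SD, n = 3 per group). With Foxk2 it went from 30.9 ± 1.26 to 37.1 ± 0.348 RPKM on overexpression and from 42.9 ± 0.594 to 25.4 ± 0.262 on knockdown (SD, n = 2 per group). The falls on knockdown (log2 fold change -0.85 ± 0.047 and -0.74 ± 0.057) were larger in size than the rises (0.29 ± 0.047 and 0.26 ± 0.057), all 4 with ranges apart. Itga3, the other laminin-binding alpha gene, was low and did not share the pattern: it was 0.27 ± 0.085, -0.50 ± 0.104, 0.21 ± 0.085 (adjusted p = 0.0673) and 0.17 ± 0.104 (adjusted p = 0.26). The rise of Itga3 in the labelled Foxk1 overexpression lost its call when only the libraries compared were modelled (adjusted p = 0.0878) and without replicate 2 of its controls (0.19, adjusted p = 0.0826). In Foxk1 knockdown Itga3 was called higher with the length and GC trend removed (0.18, adjusted p = 0.0432). The same held without replicate 2 or 3 of the Foxk1 overexpression controls (adjusted p = 0.0387 and 0.0408).

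**Figure D2:**
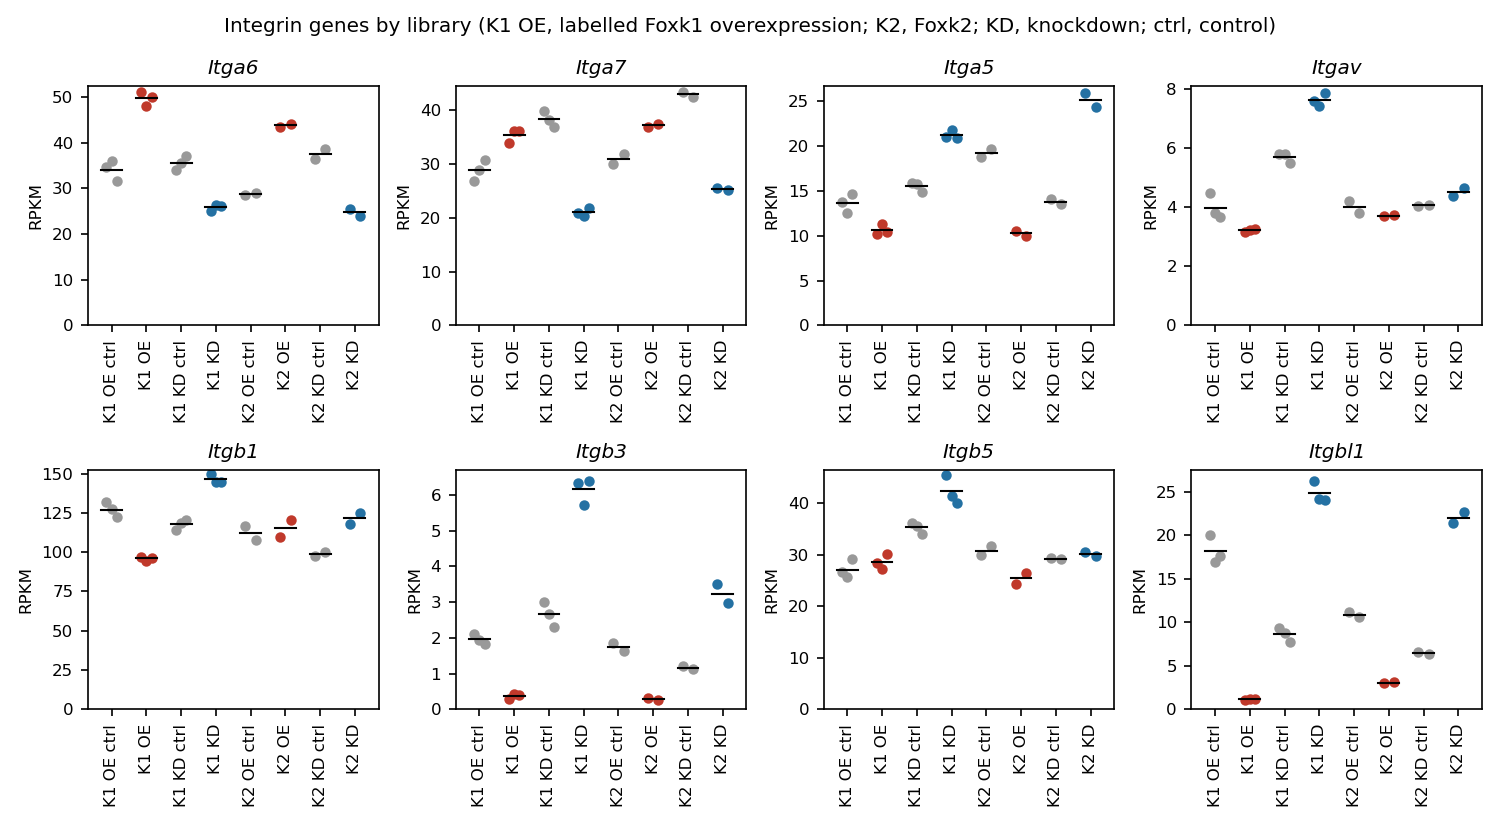
RPKM of 8 integrin genes in each library (points; grey controls, red overexpression, blue knockdown) with the group mean (bar), on linear axes that start at 0. Itga6 and Itga7 lie above their controls in red and below them in blue, and Itga5, Itgb3 and Itgbl1 lie the other way.

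Among alpha chains that recognise RGD, Itga5, Itgav and Itga2b moved opposite to Itga6 and Itga7 with Foxk1. They were lower in the labelled Foxk1 overexpression and higher in Foxk1 knockdown, and Itga5 and Itga2b did the same with Foxk2. Itga5 (ENSMUSG00000000555.6, chromosome 15, 103344286 to 103366763), the alpha chain of the fibronectin receptor, was at 10.2, 11.3 and 10.4 RPKM in the labelled Foxk1 overexpression against 13.7, 12.6 and 14.6, and at 10.5 and 10.02 in Foxk2 overexpression against 18.8 and 19.7. On knockdown it reached 21.1, 21.8 and 20.9 RPKM against 15.9, 15.8 and 14.8 with Foxk1, and 25.9 and 24.3 against 14.1 and 13.5 with Foxk2. No range overlapped that of its controls, and the log2 fold changes were -0.35 ± 0.052, -0.87 ± 0.063, 0.44 ± 0.052 and 0.84 ± 0.063. Itgav, whose chain pairs with several beta chains as a vitronectin receptor, fell by 0.27 ± 0.057 on the log2 scale in the labelled Foxk1 overexpression and rose by 0.39 ± 0.057 in Foxk1 knockdown, but was -0.10 ± 0.070 (adjusted p = 0.288) and 0.13 ± 0.070 (adjusted p = 0.164) with Foxk2. Itgav shares 5.9% of its exon bases with the gene Gm13684, and strand is not stated, so reads from the shared bases cannot be told apart.

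Itga2b, the alphaIIb chain known from platelets, was low (1.02 to 2.82 RPKM) and changed by -0.57 ± 0.087, -0.43 ± 0.107, 0.43 ± 0.087 and 0.61 ± 0.107. Itga8, which passed the filter through Foxk1 knockdown alone, was at 0.507 ± 0.0355 RPKM there against 0.265 ± 0.0591 in controls, and at 0.0447 ± 0.00539 against 0.297 ± 0.0847 in the labelled Foxk1 overexpression (SD, n = 3 per group). Its log2 fold changes with Foxk1 were -0.54 ± 0.1004 in the labelled overexpression and 0.40 ± 0.1004 in knockdown. Foxk2 comparisons of Itga8 gave 0.05 ± 0.123 and 0.07 ± 0.123, with overlapping ranges.

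The mix of alpha chain mRNA differed accordingly between groups. Laminin-binding chains (Itga3, Itga6 and Itga7) made up 80.7, 79.8 and 80.8% of summed alpha chain RPKM in the labelled Foxk1 overexpression against 69.7, 73.0 and 70.3% in its controls. In Foxk2 overexpression the share was 78.3 and 78.8% against 66.6 and 67.2%. In knockdown it was 55.0, 55.5 and 56.5% against 71.4, 71.0 and 72.3% with Foxk1, and 59.1 and 58.7% against 76.0 and 76.3% with Foxk2. RGD-binding chains (Itga5, Itga8, Itgav and Itga2b) had mean shares of 13.97 ± 0.534% against 22.04 ± 1.55% and 37.01 ± 0.486% against 22.3 ± 0.695% in the labelled Foxk1 overexpression and Foxk1 knockdown (SD, n = 3 per group), and 14.7 ± 0.301% against 27.2 ± 0.226% and 36.1 ± 0.212% against 17.9 ± 0.371% with Foxk2 (SD, n = 2 per group). The ranges of treated and control libraries were apart for both classes in all 4 comparisons. No test was run on these shares, which, as ratios within a library, do not depend on scaling between libraries.

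**Figure D3:**
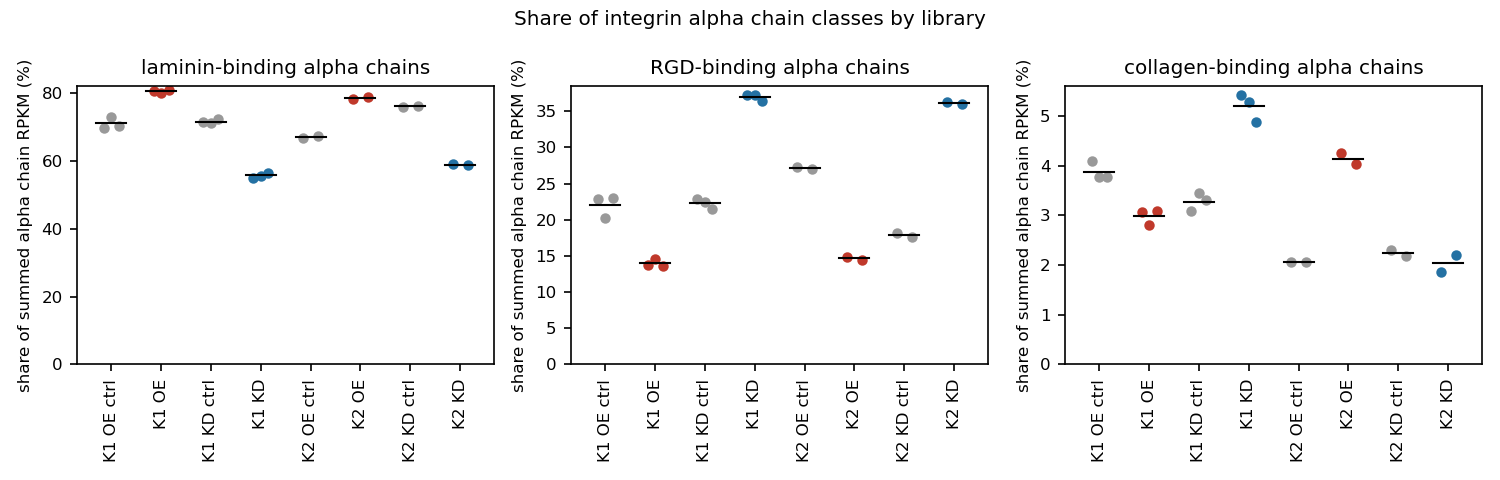
Share of summed integrin alpha chain RPKM (%) held by laminin-binding, RGD-binding and collagen-binding chains in each library (points, with the group mean as a bar; grey controls, red overexpression, blue knockdown). The laminin-binding share is near 80% in red and 55 to 60% in blue, and the RGD-binding share is near 14% in red and 36 to 37% in blue.

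Collagen-binding alpha chains differed between the factors. Itga1 (ENSMUSG00000042284.9, chromosome 13, 114953096 to 115101964), the alpha1 chain of a collagen receptor, was at 4.05 and 3.80 RPKM in Foxk2 overexpression against 1.48 and 1.49 in controls, and at 1.30 and 1.46 in Foxk2 knockdown against 2.16 and 1.99. Both pairs of groups were apart, and the log2 fold changes were 1.16 ± 0.081 (SE, adjusted p = 1.73e-08; 1.54% of all genes rose at least 2-fold there) and -0.46 ± 0.081 (adjusted p = 0.000414). In the labelled Foxk1 overexpression Itga1 was at 3.02, 2.60 and 3.00 RPKM against 3.05, 2.94 and 2.82, and in Foxk1 knockdown at 2.54, 2.72 and 2.43 against 2.05, 2.45 and 2.33. The Foxk1 groups overlapped and did not pass (-0.03 ± 0.066 and 0.14 ± 0.066). Itga11, a fibrillar collagen receptor chain of fibroblasts, passed the filter only through Foxk1 knockdown and its controls, where it was at 1.73 ± 0.0690 against 0.982 ± 0.1004 RPKM (SD, n = 3 per group, log2 fold change 0.59 ± 0.086). It fell by 0.34 ± 0.086 on the log2 scale in the labelled Foxk1 overexpression, a call lost with quantile normalization (-0.19, adjusted p = 0.0769), and was at 0.104 to 0.125 RPKM in all Foxk2 groups, as group means.

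The class as a whole was small, 2.03 to 5.19% of summed alpha chain RPKM as group means. Itga1 shares 3.68% of its exon bases with the gene Gm49395, with the same limit as for Itgav.

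Alpha chains known from leukocytes were scarce, Itgae and Itgal alone passing the filter. Itgae, the alphaE chain that pairs with beta7 and binds E-cadherin, was at 1.10 ± 0.0477 against 2.30 ± 0.235 RPKM in Foxk1 knockdown (SD, n = 3 per group) and at 2.18 ± 0.106 against 3.64 ± 0.313 in Foxk2 knockdown (SD, n = 2 per group), falls of 0.80 ± 0.063 and 0.63 ± 0.077 on the log2 scale. Its value in the labelled Foxk1 overexpression did not pass (0.15 ± 0.063, adjusted p = 0.0603), but was called higher with the length and GC trend taken out (0.19, adjusted p = 0.0199), with quantile normalization (0.25, adjusted p = 0.00459), and without replicate 1 or 2 of the Foxk1 knockdown controls, which share the estimate of spread (adjusted p = 0.035 and 0.0425). Its fall in Foxk2 overexpression (-0.23 ± 0.077, adjusted p = 0.0255) was lost without replicate 1 (-0.19, adjusted p = 0.151) and without either control library. Itgal, the alphaL chain of a lymphocyte integrin, fell from 0.449 ± 0.0476 to 0.116 ± 0.0234 RPKM in the labelled Foxk1 overexpression and from 0.299 ± 0.00645 to 0.0543 ± 0.00139 in Foxk2 overexpression. It passed the filter only through replicate 1 of the Foxk1 overexpression controls (0.503 RPKM) and replicate 1 of Foxk1 knockdown (0.515). The first of these falls is thus set against controls that let Itgal pass. Of the 10 leukocyte markers, the defining ones Ptprc, Adgre1 and Cd3e were at 0 in 18, 16 and 16 of the 20 libraries, while S100a8 (1.40 to 10.3 RPKM), Cd14 (1.13 to 5.20) and Cd68 (0.698 to 3.42) were above 0 in all. Of 5 tested leukocyte markers, 1, 0, 1 and 2 rose and 2, 2, 0 and 0 fell in the 4 comparisons.

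Beta chains and the beta-like Itgbl1 fell or did not pass where a factor was labelled as overexpressed and rose or did not pass on knockdown. In either overexpression 3 of 5 were lower (23.8% of all genes tested with the Foxk1 label and 22.0% with Foxk2). On knockdown 5 of 5 were higher with Foxk1 (20.4% of all genes) and 3 of 5 with Foxk2 (18.0%). The 5 include Itgb2, which passed the filter only through Foxk1 knockdown and its controls, groups where it is high. Itgb1 (ENSMUSG00000025809.15, chromosome 8, 128685654 to 128733200), the partner shared by all laminin- and collagen-binding alpha chains above, held 74.6 to 81.5% of the summed level of beta chains 1 to 8 as group means. It was at 97.2, 94.5 and 96.3 RPKM in the labelled Foxk1 overexpression against 131.7, 127.2 and 122.5, and at 149.5, 144.9 and 144.5 in Foxk1 knockdown against 114.4, 118.4 and 120.8. In Foxk2 overexpression Itgb1 was at 109.7 and 120.7 RPKM against 116.9 and 108.1, and in Foxk2 knockdown at 118.0 and 125.0 against 97.9 and 100.1. Only the Foxk2 overexpression libraries overlapped their controls. The log2 fold changes were -0.40 ± 0.041, 0.03 ± 0.050 (adjusted p = 0.658), 0.31 ± 0.041 and 0.29 ± 0.050. While summed alpha chain RPKM went from 89.8 to 107.2 in the labelled Foxk1 overexpression and from 104.7 to 86.5 in Foxk1 knockdown, summed beta chain RPKM went the other way, from 156.5 to 125.4 and from 156.5 to 196.2, as group means with no test. With Foxk2, summed alpha chain RPKM went from 92.96 to 105.1 on overexpression and from 108.2 to 88.97 on knockdown, and summed beta chain RPKM from 145.5 to 141.3, with overlapping libraries, and from 129.8 to 155.6.

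Itgb3 (ENSMUSG00000020689.4, chromosome 11, 104608000 to 104670476), the beta3 chain of the vitronectin receptor, changed the most among the true beta chains. It was at 0.299, 0.424 and 0.407 RPKM in the labelled Foxk1 overexpression against 2.11, 1.95 and 1.83, and at 0.328 and 0.248 in Foxk2 overexpression against 1.85 and 1.64. On knockdown it was at 6.35, 5.73 and 6.39 RPKM against 3.00, 2.67 and 2.30 with Foxk1, and at 3.52 and 2.96 against 1.21 and 1.13 with Foxk2. No library of any manipulated group fell within the range of its controls. The log2 fold changes were -1.49 ± 0.091, -1.51 ± 0.111, 1.08 ± 0.091 and 1.16 ± 0.111, with adjusted p from 2.45e-09 to 9.59e-07. Of all genes tested, 2.57 and 2.37% fell at least 2-fold in the labelled Foxk1 and the Foxk2 overexpression, and 1.05 and 1.99% rose at least 2-fold in Foxk1 and Foxk2 knockdown.

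Itgb5, another vitronectin-binding beta chain, rose by 0.26 ± 0.054 on the log2 scale in Foxk1 knockdown, to 42.3 ± 2.77 RPKM against 35.3 ± 1.13 (SD, n = 3 per group). It fell by 0.27 ± 0.066 in Foxk2 overexpression, to 25.4 ± 1.42 RPKM against 30.8 ± 1.16 (SD, n = 2 per group), a call lost with the length and GC trend removed (-0.10, adjusted p = 0.153). Its other 2 comparisons did not pass (0.08 ± 0.054 in the labelled Foxk1 overexpression and 0.04 ± 0.066 in Foxk2 knockdown). Itgb2, the leukocyte beta2 chain, rose in Foxk1 knockdown from 0.495 ± 0.0211 to 1.03 ± 0.210 RPKM (0.61 ± 0.105) and was at 0.397 RPKM or lower in all libraries of the Foxk2 sets. It passed the filter only through Foxk1 knockdown and its controls, so this rise rests partly on the filter.

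Itgbl1 (ENSMUSG00000032925.16, chromosome 14, 123659971 to 123975618) encodes a secreted protein with repeats like those of integrin beta chains, without the part that binds ligands or spans the membrane. Its mRNA was at 1.13, 1.21 and 1.16 RPKM in the labelled Foxk1 overexpression against 20.05, 16.9 and 17.6 in controls, and at 3.04 and 3.11 in Foxk2 overexpression against 11.2 and 10.6. On knockdown it rose to 26.2, 24.2 and 24.0 RPKM from 9.31, 8.73 and 7.79 with Foxk1, and to 21.4 and 22.7 from 6.58 and 6.36 with Foxk2. All 4 manipulated groups lay far outside the range of their controls. The log2 fold changes were -3.48 ± 0.065 (adjusted p = 6.18e-15), -1.67 ± 0.079 (adjusted p = 2.57e-10), 1.48 ± 0.065 (adjusted p = 3.84e-10) and 1.69 ± 0.079 (adjusted p = 8.15e-10), the largest in size among the 29 genes in each comparison on the log2(RPKM + 0.5) scale. As a ratio of mean RPKM in Foxk2 overexpression, Itgb3 (0.165) and Itgal (0.182) were lower than Itgbl1 (0.283). Its promoter window, shown above, held 1 GC box.

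Laminin chains were dominated by alpha4, beta1 and gamma1, the chains of laminin-411. Lama4 held 90.9 to 97.4% of summed laminin alpha RPKM, Lamb1 65.2 to 73.2% of beta and Lamc1 97.1 to 99.2% of gamma, as group means. Of 8 tested chains, 3 rose and 3 fell in the labelled Foxk1 overexpression, where 24.1% of all genes tested were higher and 23.8% lower. In Foxk2 overexpression 0 rose and 6 fell (23.0 and 22.0% of all genes). In Foxk1 knockdown 5 rose and 2 fell (20.4 and 15.5%), and in Foxk2 knockdown 6 rose and 0 fell (18.0 and 15.7%). Both counts of 6 include Lama2, which passed the filter only through Foxk2 knockdown and the Foxk2 overexpression controls, where it is high. Lama4 rose in both knockdowns, from 33.8 ± 0.673 to 41.5 ± 0.898 RPKM with Foxk1 (0.29 ± 0.035) and from 20.99 ± 0.0328 to 25.6 ± 0.172 with Foxk2 (0.28 ± 0.043). It did not pass in either overexpression (-0.07 ± 0.035, adjusted p = 0.115, and -0.03 ± 0.043, adjusted p = 0.689). With quantile normalization Lama4 was called lower in the labelled Foxk1 overexpression (-0.097, adjusted p = 0.0451).

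Lamb1 (ENSMUSG00000002900.15, chromosome 12, 31265234 to 31329644), the laminin gene with the highest mean over all libraries (Lamc1 was above it in both overexpression groups), was at 37.7, 38.0 and 37.9 RPKM in the labelled Foxk1 overexpression against 43.8, 45.2 and 43.99, and at 39.8 and 40.5 in Foxk2 overexpression against 59.3 and 59.2. It was at 67.0, 66.6 and 67.6 RPKM in Foxk1 knockdown against 63.2, 61.9 and 58.99, and at 60.8 and 60.5 in Foxk2 knockdown against 54.7 and 52.3. The groups were apart in all 4 comparisons, although the knockdown values lay close to their controls. The log2 fold changes were -0.22 ± 0.027, -0.56 ± 0.033, 0.13 ± 0.027 and 0.18 ± 0.033. Lamc1 rose in 3 comparisons, by 0.22 ± 0.034 in the labelled Foxk1 overexpression, 0.16 ± 0.034 in Foxk1 knockdown and 0.55 ± 0.041 in Foxk2 knockdown (38.8 ± 0.116 to 56.9 ± 0.0498 RPKM). Its fall in Foxk2 overexpression (-0.13 ± 0.041, adjusted p = 0.0199) was lost with the length and GC trend removed (-0.00, adjusted p = 0.976), without replicate 1 (adjusted p = 0.129), and without control replicate 1 or 2 (adjusted p = 0.0962 and 0.0507).

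Lama5 (ENSMUSG00000015647.9, chromosome 2, 180176373 to 180225859), the alpha5 chain of laminin-511, changed with Foxk2 in both directions. It was at 1.48 and 1.46 RPKM in Foxk2 knockdown against 0.460 and 0.470, and at 0.356 and 0.302 in Foxk2 overexpression against 0.809 and 0.821. Neither pair of groups overlapped, and the log2 fold changes were 1.03 ± 0.101 (adjusted p = 1.24e-06) and -0.67 ± 0.101 (adjusted p = 5.51e-05). The RPKM ratio in Foxk2 knockdown was 3.16, larger than the fold on the log2(RPKM + 0.5) scale, which understates changes of genes near the added 0.5. In the labelled Foxk1 overexpression Lama5 was at 0.362, 0.352 and 0.386 RPKM against 0.2997, 0.253 and 0.356, and in Foxk1 knockdown at 0.723, 0.582 and 0.555 against 0.672, 0.635 and 0.506. The Foxk1 groups overlapped and did not pass (0.11 ± 0.082, adjusted p = 0.292, and 0.02 ± 0.082, adjusted p = 0.898). Lama5 was called higher in the labelled Foxk1 overexpression with quantile normalization (0.23, adjusted p = 0.0229) and with the length and GC trend removed (0.19, adjusted p = 0.0375).

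Among the other chains, Lamb2, the beta chain that takes the place of beta1 in some laminins, changed by -0.42 ± 0.068, -0.34 ± 0.084, 0.29 ± 0.068 and 0.72 ± 0.084. Its rise in Foxk1 knockdown had an adjusted p of 0.0598 when only the libraries compared were modelled. Lama2, the alpha2 chain known from muscle, was at 1.07 ± 0.00634 against 0.494 ± 0.00374 RPKM in Foxk2 knockdown (SD, n = 2 per group, 0.66 ± 0.084) and changed by -0.35 ± 0.069, -0.38 ± 0.084 and 0.27 ± 0.069 in the other 3 comparisons. It reached 0.5 RPKM only in Foxk2 knockdown and the Foxk2 overexpression controls, so its changes with Foxk2 rest partly on the filter.

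Lamb3, which encodes the beta3 chain of an epithelial laminin, went against most other laminin genes in Foxk1 knockdown. It fell in Foxk1 knockdown from 4.09 ± 0.314 to 1.996 ± 0.157 RPKM (-0.88 ± 0.082) and rose in the labelled Foxk1 overexpression from 2.14 ± 0.243 to 2.69 ± 0.136 (0.27 ± 0.082, SD, n = 3 per group). The rise of Lamb3 had an adjusted p of 0.0524 when only the libraries compared were modelled and 0.0621 without control replicate 3. With Foxk2, the fall of Lamb3 on overexpression (-0.30 ± 0.1003, adjusted p = 0.0242) was lost with the length and GC trend removed (-0.12, adjusted p = 0.362), without either overexpression library (adjusted p = 0.0891 and 0.0801), and without control replicate 2 (adjusted p = 0.15). Lama3, the alpha3 chain of epithelial laminins, stayed under the filter, and the epithelial marker Epcam was at 0 in 17 libraries, while the keratin gene Krt18 ranged from 0.209 to 4.52 RPKM and was called higher in both overexpressions and lower in both knockdowns.

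**Figure D4:**
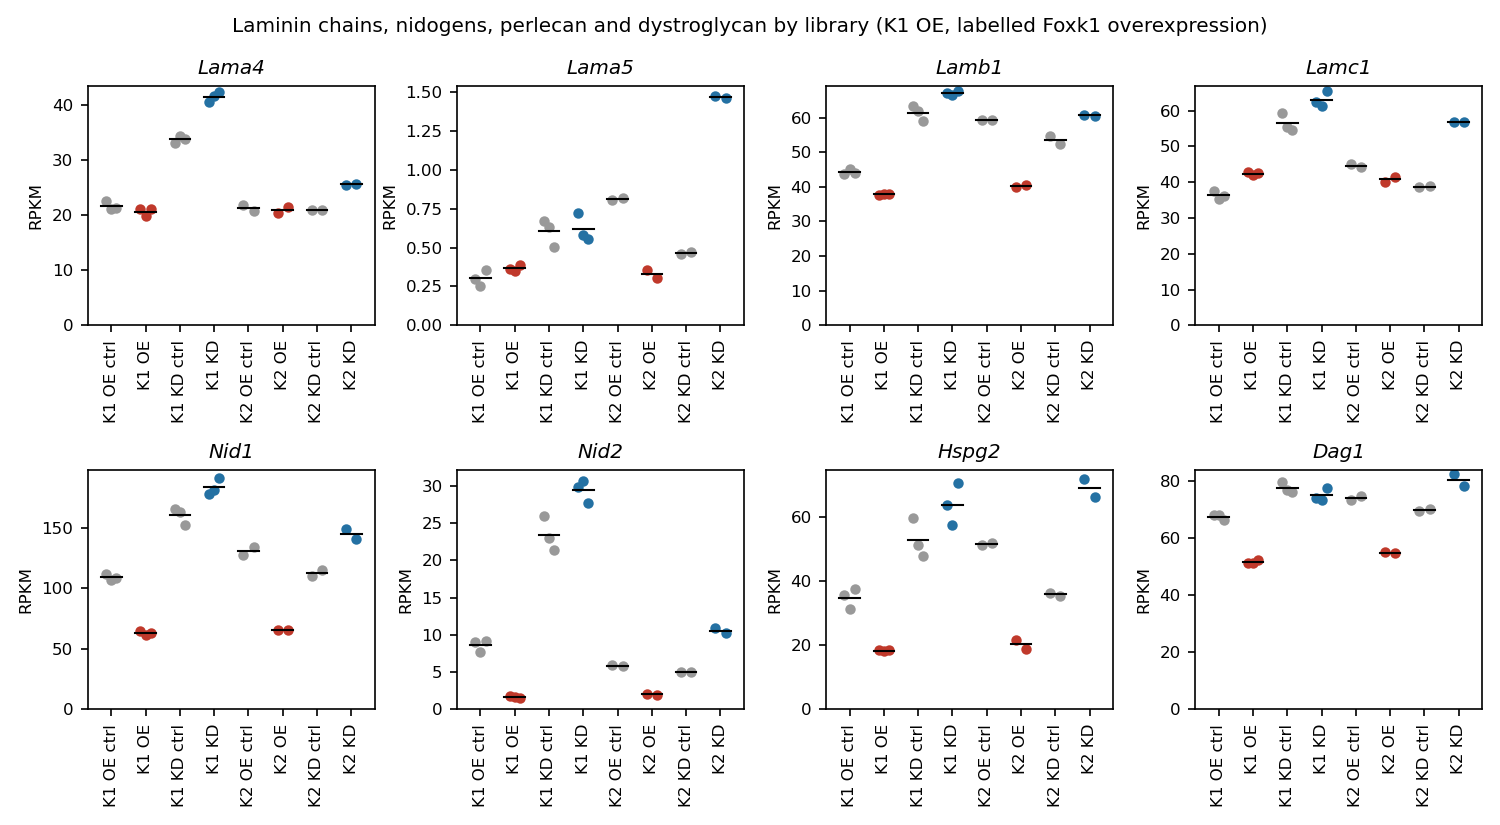
RPKM of 4 laminin genes, both nidogens, perlecan (Hspg2) and dystroglycan (Dag1) in each library (points; grey controls, red overexpression, blue knockdown) with the group mean (bar), on linear axes that start at 0. Nid1, Nid2 and Hspg2 lie below their controls in red with both factors, and Lama5 in Foxk2 knockdown, at 1.46 and 1.48 RPKM, stands above all other libraries.

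Of the linkers of the basement membrane, 5 of 5 were lower on Foxk2 overexpression (22.0% of all genes tested). In the labelled Foxk1 overexpression 4 of 5 were lower (23.8% of all genes), and Agrn rose. On knockdown 4 of 5 were higher with Foxk1 (20.4% of all genes) and 5 of 5 with Foxk2 (18.0%). The ranges of Foxk1 knockdown and its controls were apart for 2 of the 5, against 44.2% of all genes tested. Nid1 (ENSMUSG00000005397.7, chromosome 13, 13437551 to 13512269), nidogen 1, had the highest mean level of the 44 genes over all 20 libraries. Itgb1 was above Nid1 in both overexpression groups and in the controls of the labelled Foxk1 overexpression. Nid1 was at 64.4, 61.5 and 62.7 RPKM in the labelled Foxk1 overexpression against 111.6, 107.1 and 108.6, and at 65.9 and 65.3 in Foxk2 overexpression against 127.7 and 134.3. It was at 178.0, 181.0 and 191.1 RPKM in Foxk1 knockdown against 165.7, 162.9 and 152.6, and at 148.6 and 141.0 in Foxk2 knockdown against 110.0 and 115.4. No groups overlapped, and the falls (-0.79 ± 0.038 and -0.99 ± 0.047) were larger in size than the rises (0.19 ± 0.038 and 0.36 ± 0.047).

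Nid2 (ENSMUSG00000021806.3, chromosome 14, 19751265 to 19811787), nidogen 2, fell further. It was at 1.84, 1.67 and 1.57 RPKM in the labelled Foxk1 overexpression against 9.07, 7.64 and 9.14, and at 2.096 and 1.95 in Foxk2 overexpression against 5.97 and 5.77. Foxk1 knockdown libraries had 29.8, 30.7 and 27.7 RPKM against 25.9, 23.0 and 21.4, and Foxk2 knockdown libraries 10.9 and 10.2 against 5.08 and 5.05. The groups were apart in every comparison, closest in Foxk1 knockdown. The log2 fold changes were -2.05 ± 0.074 (adjusted p = 7.14e-12), -1.34 ± 0.090 (adjusted p = 1.11e-08), 0.32 ± 0.074 (adjusted p = 0.00281) and 0.99 ± 0.090 (adjusted p = 5.78e-07). The share of Nid2 in summed nidogen RPKM went from 7.32 to 2.62% in the labelled Foxk1 overexpression from 4.29 to 2.99% in Foxk2 overexpression and from 4.30 to 6.80% in Foxk2 knockdown, while in Foxk1 knockdown it was 13.8 against 12.7% with overlapping libraries. Nid2 shares 8.45% of its exon bases with Rtraf, which was called only in the labelled Foxk1 overexpression (-0.12 ± 0.049, adjusted p = 0.0482).

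Hspg2 (ENSMUSG00000028763.17, chromosome 4, 137468769 to 137570630) encodes perlecan, a heparan sulfate proteoglycan that binds nidogen and laminin. It was at 18.6, 18.1 and 18.3 RPKM in the labelled Foxk1 overexpression against 35.6, 31.2 and 37.5, and at 21.6 and 18.8 in Foxk2 overexpression against 51.2 and 51.8. In Foxk2 knockdown it was at 71.9 and 66.2 RPKM against 36.2 and 35.4, and in Foxk1 knockdown at 63.6, 57.3 and 70.6 against 59.5, 51.1 and 47.7. Only the Foxk1 knockdown group overlapped its controls. The log2 fold changes were -0.90 ± 0.087, -1.33 ± 0.106, 0.27 ± 0.087 (adjusted p = 0.0227) and 0.94 ± 0.106. The Foxk1 knockdown call was lost when only the libraries compared were modelled (adjusted p = 0.144) and without control replicate 2 or 3 (0.25 and 0.20, adjusted p = 0.0699 and 0.107) or knockdown replicate 1 or 3 (0.27 and 0.20, adjusted p = 0.0522 and 0.112).

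Agrn, which encodes agrin, went up from 4.75 ± 0.226 to 5.76 ± 0.205 RPKM in the labelled Foxk1 overexpression (SD, n = 3 per group, 0.25 ± 0.062) and down from 8.01 ± 0.227 to 6.12 ± 0.0281 in Foxk2 overexpression (SD, n = 2 per group, -0.36 ± 0.076). It rose in Foxk2 knockdown from 5.85 ± 0.464 to 9.44 ± 0.0998 RPKM (0.65 ± 0.076). Its rise in Foxk1 knockdown (0.21 ± 0.062, adjusted p = 0.014) had overlapping groups and was lost when only the libraries compared were modelled (adjusted p = 0.122) and without control replicate 2 or 3 or knockdown replicate 1 or 3 (adjusted p = 0.0651, 0.0595, 0.0583 and 0.0595). Dag1, the precursor of both dystroglycan chains, fell from 67.4 ± 0.846 to 51.5 ± 0.682 RPKM in the labelled Foxk1 overexpression (-0.38 ± 0.027) and from 74.01 ± 0.822 to 54.8 ± 0.214 in Foxk2 overexpression (-0.43 ± 0.034). It rose by 0.20 ± 0.034 in Foxk2 knockdown and did not pass in Foxk1 knockdown (-0.05 ± 0.027, adjusted p = 0.185), where it was called lower with median-ratio scaling (-0.08, adjusted p = 0.0375) and with the length and GC trend removed (-0.11, adjusted p = 0.00277).

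The effect of Foxk1 was set against that of Foxk2 as a difference of log2 fold changes, between library sets that also differ in depth and number of replicates. For overexpression, 12 of 29 differences were higher with the Foxk1 label, 5 were lower and 12 did not pass, where 25.1% of all genes tested passed (11.6% higher, 13.5% lower). For knockdown, 2 were higher, 11 lower and 16 did not pass, where 14.3% of all genes passed (6.68% higher, 7.63% lower). For Itgb3 the difference did not pass between the 2 overexpressions (0.02 ± 0.143, adjusted p = 0.949) or between the 2 knockdowns (-0.08 ± 0.143, adjusted p = 0.774), nor did it for Itga6 (-0.06 ± 0.072, adjusted p = 0.597, and 0.14 ± 0.072, adjusted p = 0.233). Itgbl1 fell more in the labelled Foxk1 overexpression (-1.82 ± 0.102, adjusted p = 2.09e-08), while its difference between knockdowns did not pass (-0.22 ± 0.102, adjusted p = 0.184). Lama5 differed in both (0.78 ± 0.130, adjusted p = 0.00051, and -1.01 ± 0.130, adjusted p = 0.000126), and so did Itga1 (-1.19 ± 0.105, adjusted p = 1.78e-06, and 0.60 ± 0.105, adjusted p = 0.00136). Without replicate 2 of the Foxk2 knockdown controls, 8 of the 13 knockdown differences were called.

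Genes that act around these receptors were followed in 5 lists, each described by counts. All genes tested were called higher in 24.1, 23.0, 20.4 and 18.0% and lower in 23.8, 22.0, 15.5 and 15.7%, in the order of comparisons used above. Of 23 tested integrin ligands of the interstitial matrix and of cell surfaces, 19 fell and 2 rose in the labelled Foxk1 overexpression. In Foxk2 overexpression 18 fell and 3 rose, and 19 and 20 rose with 1 lower in Foxk1 and Foxk2 knockdown. Their median log2 fold changes were -0.62, -0.84, 0.53 and 0.80, where those of all genes were 0.00, 0.00, 0.02 and 0.00. Thbs1, which encodes thrombospondin 1, fell from 63.1 to 10.8 RPKM in Foxk2 overexpression (-2.50 ± 0.095) and rose from 37.0 to 138.1 in Foxk1 knockdown (1.89 ± 0.078). Postn, which encodes periostin, fell from 50.7 to 12.1 RPKM in the labelled Foxk1 overexpression (-2.02 ± 0.055), while Ibsp, bone sialoprotein, rose from 0.188 to 2.13 in Foxk2 overexpression (1.92 ± 0.143). The 3 collagen genes Col1a1, Col1a2 and Col3a1 are also among the fibroblast markers above.

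Of 18 other basement membrane genes tested, 4 rose and 13 fell in the labelled Foxk1 overexpression, 2 rose and 9 fell in Foxk2 overexpression, 12 rose and 4 fell in Foxk1 knockdown, and 10 rose and 2 fell in Foxk2 knockdown, with medians of -0.39, -0.22, 0.22 and 0.29. Col4a1, a main chain of collagen IV, changed by -0.67 ± 0.045, -0.99 ± 0.055, 0.16 ± 0.045 and 0.65 ± 0.055, and Col4a2 by -0.61 ± 0.048, -0.89 ± 0.058, 0.19 ± 0.048 and 0.67 ± 0.058. Fbln1, fibulin 1, fell from 1.91 to 0.301 RPKM in the labelled Foxk1 overexpression (-1.59 ± 0.076) and rose from 0.955 to 3.33 in Foxk2 knockdown (1.40 ± 0.093). Npnt, nephronectin, a ligand of alpha8 beta1, went the other way with Foxk2, up from 2.16 to 7.13 RPKM on overexpression (1.53 ± 0.139) and down from 3.11 to 1.21 on knockdown (-1.08 ± 0.139).

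Of 30 tested genes of the adhesion machinery inside the cell, 7 rose and 13 fell in the labelled Foxk1 overexpression, 3 rose and 22 fell in Foxk2 overexpression, 15 rose and 2 fell in Foxk1 knockdown, and 20 rose and 1 fell in Foxk2 knockdown, with medians of -0.06, -0.34, 0.11 and 0.26. Flna, the actin crosslinker filamin A, rose from 40.7 to 86.5 RPKM in Foxk2 knockdown (1.08 ± 0.060), and Cav1, caveolin 1, fell from 570.02 to 267.2 in Foxk2 overexpression (-1.09 ± 0.045). Tns3, tensin 3, fell from 15.1 to 6.37 RPKM in the labelled Foxk1 overexpression (-1.18 ± 0.048), where Parvg, gamma-parvin, rose from 0.437 to 1.62 (1.19 ± 0.109).

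Dystroglycan's partners and the enzymes that glycosylate it fell more often than they rose in the overexpressions and were mixed in the knockdowns. Of 19 tested, 2 rose and 10 fell, 2 rose and 9 fell, 7 rose and 4 fell, and 4 rose and 5 fell. The order is that used above, and the medians were -0.20, -0.09, -0.03 and 0.05. Sspn, sarcospan, fell from 16.6 to 8.41 RPKM in Foxk2 overexpression (-0.94 ± 0.057), as did B4gat1, an enzyme of dystroglycan glycosylation (-0.65 ± 0.061), and Dtna and Sntb2, dystrobrevin alpha and a syntrophin, rose in Foxk2 knockdown (0.69 ± 0.114 and 0.54 ± 0.051). Of 7 other laminin receptors tested, 2, 3, 3 and 3 rose and 2, 3, 1 and 0 fell, with medians of -0.00, 0.01, 0.12 and 0.10. Gpc1, glypican 1, fell in Foxk2 overexpression (-1.16 ± 0.090) and rose in Foxk2 knockdown (1.09 ± 0.090), and Sdc3, syndecan 3, did likewise (-0.79 ± 0.121 and 0.91 ± 0.121).

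Of the other cell types the cultures could hold, the endothelial one had 0 of 8 markers past the filter. Smooth muscle and pericyte markers were present, with summed levels of 74.2 to 157.6 RPKM over all libraries, Mcam at 37.9 to 65.3 and Acta2 at 8.01 to 79.98, while Rgs5 was at 0 in 12 libraries. Of 5 tested ones, 1, 1, 3 and 3 rose and 4, 2, 2 and 2 fell in the 4 comparisons, and their part in the results above was not tested. Of 4 Schwann cell markers 2 were tested, with 1 lower in the labelled Foxk1 overexpression and 1 higher in Foxk1 knockdown, and Sox10 was at 0 in 18 libraries.

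The 15 genes under the filter were Itga2, Itga4, Itga9, Itga10, Itgad, Itgam, Itgax, Itgb2l, Itgb4, Itgb6, Itgb7, Itgb8, Lama1, Lama3 and Lamc3. Itgb2l and Lama1 were listed at 0 in all 20 libraries, and the highest level in the group was 0.384 RPKM, for Itgad in 1 library. They include the beta4 chain (Itgb4), the hemidesmosome partner of alpha6, which ranged from 0.0389 to 0.200 RPKM. Among the 29 tested genes, Itga8, Itga11, Itgal, Itgb2 and Lama2 reached 0.5 RPKM in at most 2 of the 8 groups.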

How the data were processed

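Total RNA of 20 libraries of 3T3-L1 adipocytes was sequenced. The authors deposited 1 table of RPKM values for 48440 genes. Per the submitters' processing notes, HISAT2 2.1.0, Picard 1.141, featureCounts of Subread 1.5.1, edgeR and the mm10 build were used, and strand handling is not given in the sources used here. Coordinates are those of the GENCODE annotation of GRCm38 (mm10), matched by Ensembl identifier.

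RPKM was taken to log2(RPKM + 0.5) and fitted with limma 3.58.1 (R 4.3.3) over 8 group means and all 20 libraries, with an intensity trend and 12 residual degrees of freedom. Testing was limited to the 15981 genes that reached 0.5 RPKM in at least 2 libraries, with Benjamini-Hochberg adjustment over all of them. The script was tested on simulated data, where the false share of calls was somewhat above the nominal rate, so adjusted p near the threshold are less firm than they read. Fold changes on this scale understate the change of low genes.

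Low values were whole multiples of what 1 read is worth: RPKM times exon length gave whole reads within 0.1 read. Their sum exceeded the depth in the RPKM denominator by 12.7 to 15.4%, and a limma model with voom weights on these reads was run as an alternative.

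Every tested gene of the families is named except 1, which enters the counts and is not reported here. Values by library are given for genes called with a log2 fold change of 1 or more in size, for the most abundant gene of each class, and for Itga5, added after its values were seen. In each of 5 pathway lists, the 2 genes with the largest called change in each direction are named, with Col4a1 and Col4a2 added as chains of collagen IV. Marker lists covered adipocytes, fibroblasts and preadipocytes, leukocytes, endothelium, smooth muscle and pericytes, epithelium and Schwann cells. The genes and lists were chosen with earlier results of these data known. Alternatives changed the pseudocount, filter, scaling, libraries in the model, variance model and count model, added a replicate block, and left out each library; a filter at a mean of 20 reads was added after seeing the data.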

Additional observations from a re-analysis of the deposited data

Results flagged for a closer look

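The difference between the Foxk1 and the Foxk2 effect on a gene was taken as log2 fold change with Foxk1 minus that with Foxk2. It passed limma's adjusted p of 0.05 for 17 of the 29 genes in overexpression and 13 in knockdown. Of all genes tested, 25.1% passed in overexpression and 14.3% in knockdown. The compared library sets differ in depth and number of replicates, whose part was not tested. In overexpression, with the libraries labelled Foxk1 overexpression, the difference was higher for genes that include Lama5 (0.78), Itga3 (0.77), Agrn (0.62), Lamb3 (0.57), Itga5 (0.53), Hspg2 (0.43), Itgae (0.38), Itgb5 (0.35), Lamc1 (0.35), Lamb1 (0.33) and Nid1 (0.20). It was lower for Itgbl1 (-1.82), Itga1 (-1.19), Nid2 (-0.72), Itga8 (-0.60) and Itgb1 (-0.44). In knockdown it was higher for Itga1 (0.60) and Itga11 (0.54). Itga11 passed the filter only through Foxk1 knockdown and its controls, and its difference lost the call with a pseudocount of 0.1 (adjusted p = 0.152), with voom on recovered reads (0.27) and without Foxk2 knockdown replicate 1 (0.0817). The knockdown difference was lower for genes that include Lama5 (-1.01), Lamb3 (-0.96), Nid2 (-0.67), Hspg2 (-0.66), Agrn (-0.44), Lamb2 (-0.43), Itga5 (-0.40), Lama2 (-0.39), Lamc1 (-0.39) and Dag1 (-0.25). Lama2 passed the filter only through Foxk2 knockdown and the Foxk2 overexpression controls, groups where it is high, so its difference rests partly on the filter. Hspg2 and Nid1 in overexpression, and Lama2 in knockdown, lost this call when single libraries were left out: Hspg2 reached an adjusted p of 0.157 without Foxk2 overexpression replicate 2, Nid1 0.112 without Foxk2 overexpression control replicate 2, and Lama2 0.0811 without Foxk2 knockdown control replicate 2. Itga8 (adjusted p = 0.0515 without Foxk2 overexpression control replicate 1) and Itgae (adjusted p = 0.0536 without Foxk2 overexpression replicate 1) lost it in overexpression. Without Foxk2 knockdown control replicate 2, Agrn (0.0566), Itga11 (0.0533) and Lamb2 (0.0799) lost it in knockdown, as adjusted p.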

How the results depend on the processing

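No gene of the 29 changed direction under any alternative where it was called. The number called of 29 ranged, with 1 library left out, from 22 to 24 in the labelled Foxk1 overexpression, 19 to 22 in Foxk2 overexpression, 21 to 25 in Foxk1 knockdown and was 20 in each case in Foxk2 knockdown. The differences between factors ranged from 15 to 18 in overexpression and from 8 to 14 in knockdown, with 8 without Foxk2 knockdown control replicate 2, against 13. The pattern of lower in both overexpressions and higher in both knockdowns held for 9 or 10 genes with 1 library left out, and for 6 in place of 10 with the length and GC trend removed. The opposite pattern held for 2 throughout. Replicate numbers did not pair the samples: deviations of same-numbered libraries correlated at -0.0858 to 0.0331. With a replicate block, 23, 21, 24 and 20 genes were called in the order used above, 15 and 13 differences passed, and 10 and 2 genes held the patterns. Quantile normalization put the share of called genes that were higher at 47.9% in Foxk1 knockdown and 45.3% in Foxk2 knockdown, and the removed length and GC trend at 43.7 and 40.7%. Some calls were gained. Dag1 and Itga3 in Foxk1 knockdown and Itgae, Lama4 and Lama5 in the labelled Foxk1 overexpression passed under other scalings. With voom on recovered reads, gained calls include Itgal in Foxk1 knockdown (adjusted p = 0.0341) and Itgb2 in Foxk2 knockdown (adjusted p = 0.0303). How depth limits the low genes was not tested.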
